A study of Mus musculus with 8 samples.

Results

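Mature β-cells can lose identity under metabolic stress, and they are not all alike, and both states are followed through marker genes. The 8 genes described here are such markers: Neurog3, Aldh1a3, Gast, Cd81, Bach2, Cfap126, Cd9 and St8sia1. They were chosen by symbol, as the rows of the count table whose Ensembl identifier maps to these names, and all 8 were found among 53012 genes. Bulk RNA-seq was run on the islets of 8 mice, 4 in each of the groups βIgf1r and βIgf1rKD and a library for each mouse. The comparison asks whether the marker levels differ after knockdown of the receptor for insulin-like growth factor 1 in adult β-cells. All 8 mice were 17 months old and carried Igf1r flox/flox, an allele in which exon 3 of Igf1r is flanked by loxP sites. The βIgf1rKD mice also carried Ins1-CreERT2, a Cre recombinase active in insulin-expressing cells once tamoxifen is given, and were injected 5 times with tamoxifen (0.075 mg/g). Mice of the βIgf1r group lacked Cre and were given the oil vehicle, so that Cre and tamoxifen cannot be told apart from the knockdown of Igf1r. The islets were taken 7 days after the injections ended, and each group held both sexes.

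Dedifferentiation is the state in which a β-cell keeps living but loses the genes of the mature cell and takes up genes of progenitors. Neurog3, the transcription factor that commits pancreatic progenitors to the endocrine fate, and Aldh1a3, an enzyme that makes retinoic acid, are the best known genes to reappear in it, and Gast, the peptide hormone gastrin of the fetal pancreas, is another. Cd81, a tetraspanin of the cell surface, marks immature β-cells, and Bach2 is a transcriptional repressor that was first studied in B lymphocytes. The remaining 3 genes mark subsets of β-cells in the normal islet. Cfap126, also called Flattop, is an effector of planar cell polarity that separates mature from proliferation-prone β-cells in mice, and the surface tetraspanin Cd9 and the ganglioside enzyme St8sia1 define subtypes in human islets.

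Total estimated counts lay between 21633925 and 42391106 per mouse, and levels are given as CPM, counts scaled to library size with TMM factors of 0.803 to 1.23. Insulin and islet amyloid genes marked the samples as islets, with summed CPM of 6 β-cell markers at 114227 to 151569 (βIgf1r) and 107317 to 158354 (βIgf1rKD). Igf1r itself went from 53.6 ± 7.21 to 50.7 ± 4.996 CPM (SD, n = 4 each), in counts that cover the whole gene and not the floxed exon alone. Its log2 fold change was -0.08 (standard error 0.11, edgeR unadjusted p = 0.483), so that no difference of Igf1r was detected in these counts. A value of bulk RNA cannot tell fewer cells of a type from less RNA per cell. RNA of other cells differed between the groups or between single mice. All 11 endothelial markers had a lower mean in βIgf1rKD islets (summed CPM 418 to 467 against 483 to 587), 7 of them at an unadjusted p under 0.05 by edgeR, and all 13 acinar markers had a higher one (29891 to 169690 against 13574 to 136020), with 0 at such a p. The 7 macrophage markers had higher means (1 at such a p) and the 5 Schwann cell markers lower ones (0 at such a p). B cell RNA stood out in 1 βIgf1r mouse, M151, with Ighm at 797 CPM and Ms4a1 at 9.93 CPM, whereas Ighm was at 7.44 to 23.0 CPM in the other βIgf1r mice and at 43.1 to 363 CPM in the βIgf1rKD mice. Values are therefore also given, for the markers, without M151 or with a marker score as covariate where that changes a call or a direction, and for genes around them with the acinar or endothelial score.

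The sequences before the starts of Neurog3 and Bach2 are printed because these genes had the smallest p-values of the 8. They are the 250 bases before the RefSeq start on GRCm38.p6, plus strand, from chr10:62132840-62133089 for Neurog3 and chr4:32417185-32417434 for Bach2, and the Bach2 start lies inside the longer gene of the GENCODE annotation. Capitals mark 2 motifs searched on both strands, the E-box CANNTG, bound by basic helix-loop-helix factors such as NEUROG3 itself, and the N-box CACNAG, bound by HES1, the repressor of Neurog3 in progenitors.
Neurog3: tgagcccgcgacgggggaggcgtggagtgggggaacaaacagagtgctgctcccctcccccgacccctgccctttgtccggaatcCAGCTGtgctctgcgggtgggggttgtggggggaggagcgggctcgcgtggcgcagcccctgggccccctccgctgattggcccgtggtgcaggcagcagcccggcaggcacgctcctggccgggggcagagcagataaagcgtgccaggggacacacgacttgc
Bach2: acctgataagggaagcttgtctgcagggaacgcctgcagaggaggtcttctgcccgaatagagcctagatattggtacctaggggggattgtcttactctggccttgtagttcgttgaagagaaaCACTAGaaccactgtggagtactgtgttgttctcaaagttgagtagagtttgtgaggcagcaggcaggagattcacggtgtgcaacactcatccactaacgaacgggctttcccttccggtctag
The Neurog3 window held 1 E-box, at position -165 from the start, and no N-box. In the Bach2 window there was 1 N-box, at position -125, and no E-box. Of 32851 RefSeq promoter windows of the same length 66.2% held an E-box and 36.7% an N-box, so that either motif is common. RefSeq promoters were matched for 7 of the 8 genes.

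Neurog3 had a lower mean in βIgf1rKD islets and Bach2 pointed the same way, while the groups overlapped more widely for the other 6 genes. Of the 8 genes 7 had enough counts for the test of edgeR, the quasi-likelihood test with Benjamini-Hochberg adjustment. Among these 7, 5 had a negative log2 fold change, against 47.7% of all 15474 genes tested, and their median was -0.13, against 0.01 for all genes. An unadjusted p under 0.05 was reached by 1 of the 7, Neurog3, with a lower mean, as had 1.89% of all genes (4.12% in both directions). None of the 7 passed at an adjusted p under 0.05 by edgeR, DESeq2 or limma-voom, as 0% of all genes did by edgeR. None separated the mice of the groups completely, against 1.27% of all genes with every βIgf1rKD mouse below every βIgf1r mouse.

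**Figure D1:**
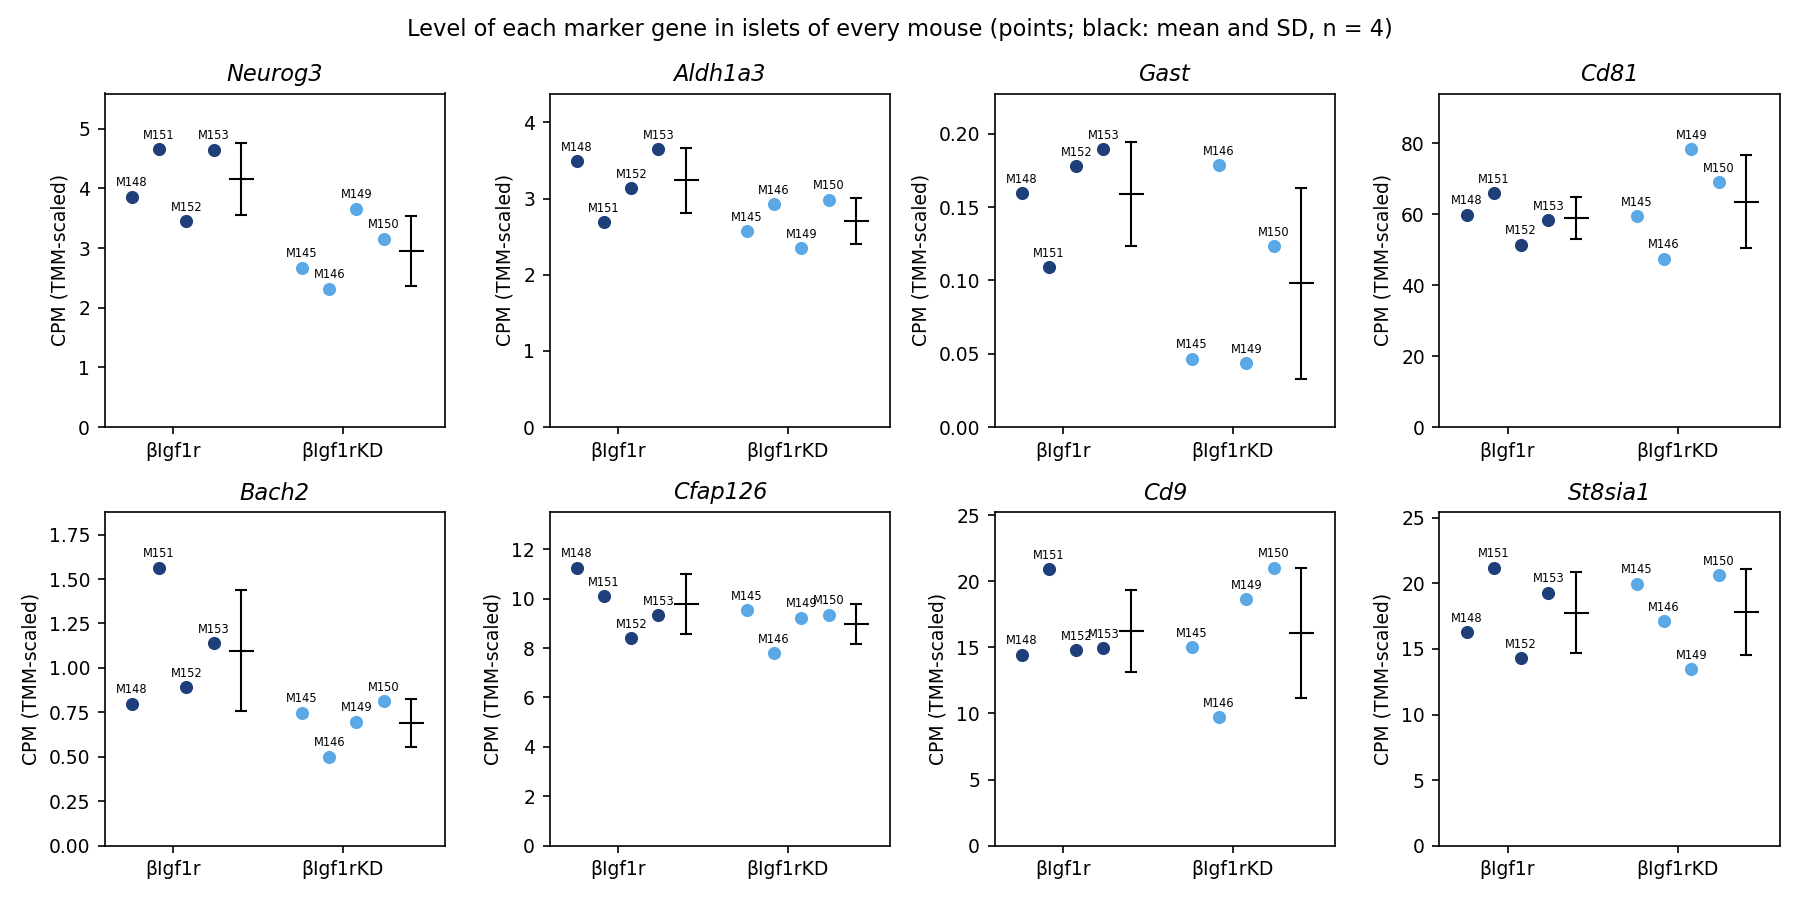
CPM (TMM-scaled, y axes from 0) of the 8 marker genes in each mouse, dark blue for βIgf1r and light blue for βIgf1rKD, with the mean and SD of 4 mice in black. For Neurog3 and Bach2, 3 of the 4 βIgf1rKD points lie below every βIgf1r point, whereas Cd9 and St8sia1 share one range.

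Neurog3 (ENSMUSG00000044312) is a plus-strand gene of chromosome 10, from 62133090 to 62134763 in GRCm38. It was at 3.86, 4.66, 3.45 and 4.64 CPM in βIgf1r mice M148, M151, M152 and M153. In βIgf1rKD mice M145, M146, M149 and M150 it was at 2.67, 2.32, 3.66 and 3.16 CPM. Thus 3 βIgf1rKD mice lay below every control, and M149 alone lay above the lowest control, M152. The mean went from 4.15 ± 0.597 CPM to 2.95 ± 0.583 CPM (SD, n = 4 each), or 71.0% of the control level. The log2 fold change was -0.49 (standard error 0.19, 95% interval -0.92 to -0.06; edgeR unadjusted p = 0.0284, adjusted p = 0.987), and an exact permutation test (two-sided, on log2 CPM) gave p = 0.0571, where the smallest possible p is 0.0286. Its counts, at least 57 per mouse, carry a counting error of 9.25% to 10.9%, below the coefficient of variation between mice of 14.4% to 19.7%. The unadjusted call was lost without any one of M151, M153, M145 or M146 (log2 fold change -0.45 to -0.39, edgeR unadjusted p 0.0664 to 0.0715), and with an acinar score (-0.53, edgeR unadjusted p = 0.0514), an endothelial score (-0.31, standard error 0.42, edgeR unadjusted p = 0.480) or Xist expression (-0.45, edgeR unadjusted p = 0.0582) as covariate. The endothelial score, like the summed endothelial CPM, does not overlap between the groups, so that this score and the group cannot be told apart, although 6 of the 11 single markers do overlap.

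Neighbouring and functionally linked genes were then read beside Neurog3. Fam241b, whose exons overlap those of Neurog3 by 273 bases on the opposite strand, was at -0.16 (standard error 0.12, edgeR unadjusted p = 0.213), and whether the counting used strand is not given in the sources used here. Of 18 genes of the Neurog3 program, the Notch genes upstream and the endocrine factors downstream of it, 16 were tested, with 8 higher, 8 lower, a median log2 fold change of 0.00 and none at an unadjusted p under 0.05. Insm1 and Neurod1, direct targets of NEUROG3 that adult β-cells keep expressing, had log2 fold changes of -0.15 (standard error 0.12) and -0.04 (standard error 0.13). Hes1, the Notch-driven repressor of Neurog3, was at 0.21 (standard error 0.21), and Runx1t1 had the smallest p of the list (-0.22, edgeR unadjusted p = 0.0831). Pax4, a further target, was listed at 0 in every mouse. Over the 8 mice the genes most like Neurog3 in log2 CPM among the 13728 with a mean above 1 CPM were Tox (Pearson r = 0.968, Spearman rho = 0.905) and Tnfsf10 (r = 0.956, rho = 0.929), each the highest of many correlations over few mice.

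Aldh1a3 (ENSMUSG00000015134), on the minus strand of chromosome 7 from 66390890 to 66427517, was at 3.49, 2.69, 3.13 and 3.65 CPM in βIgf1r mice M148, M151, M152 and M153. The βIgf1rKD mice M145, M146, M149 and M150 had 2.57, 2.93, 2.35 and 2.98 CPM. All 4 βIgf1rKD mice lay below the control median, and 2 of them below every control. The log2 fold change of -0.25 (standard error 0.17, 95% interval -0.64 to 0.13; edgeR unadjusted p = 0.170, adjusted p = 0.987) did not pass, and neither did the exact permutation test (p = 0.114). Its sign turned with the endothelial score as covariate (0.12, standard error 0.40). Aldh1a3 lies 1525310 bases from Igf1r on the same chromosome.

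Retinoid genes were looked at around Aldh1a3, and 14 of 20 were tested, 11 with a higher and 3 with a lower mean in βIgf1rKD islets (median log2 fold change 0.16). The 1 gene at an unadjusted p under 0.05 was Aldh1a1, another retinaldehyde dehydrogenase, which pointed opposite to Aldh1a3. It was at 1.94, 2.33, 6.73 and 4.69 CPM in βIgf1r mice M148, M151, M152 and M153, and at 17.6, 2.57, 15.1 and 6.91 CPM in βIgf1rKD mice M145, M146, M149 and M150. This difference was 1.42 on the log2 scale (standard error 0.58, edgeR unadjusted p = 0.0355, adjusted p = 0.987), and with the acinar score as covariate it was 0.38 (edgeR unadjusted p = 0.277). Cyp26b1, which degrades retinoic acid, had a log2 fold change of 2.96 with a standard error of 1.41, from 4 to 504 counts per mouse. That difference rests on M145, at 23.6 CPM, since the other βIgf1rKD mice were at 0.197 to 0.785 CPM and the controls at 0.178 to 1.65 CPM. Genes of retinoid transport and reception were steadier, with Rbp4 at -0.17 (standard error 0.19) and Rxrb at 0.13 (standard error 0.09). Crabp1, Crabp2, Cyp26a1, Stra6 and Lrat were listed at 0 in at least 1 mouse.

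Gast (ENSMUSG00000017165), on chromosome 11 from 100334407 to 100336996, was too low for the filter and was not tested in the main edgeR fit. Without a filter on low counts its log2 fold change was -0.61 (standard error 0.62, edgeR unadjusted p = 0.345). It had 6, 3, 5 and 4 counts in βIgf1r mice M148, M151, M152 and M153 and 1, 5, 1 and 5 counts in βIgf1rKD mice M145, M146, M149 and M150. The sums were 18 and 12 counts, a ratio of 0.675 after scaling by library size and TMM (exact 95% interval 0.296 to 1.48, for counting error only), and the exact permutation test gave p = 0.229. A difference was not detectable at this depth. Cckbr, the receptor that gastrin binds, had 0 to 15 counts, and Cck, the related hormone gene also used as a dedifferentiation marker, 2 to 18 counts. Cckar, the receptor for cholecystokinin that acinar cells carry, was abundant at 11.3 to 57.8 CPM in controls and 15.6 to 157 CPM in βIgf1rKD mice (log2 fold change 1.47, standard error 0.68, edgeR unadjusted p = 0.0570). With the acinar score as covariate its log2 fold change was 0.22.

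Bach2 (ENSMUSG00000040270) spans chromosome 4 from 32238804 to 32586108 on the plus strand. It was at 0.799, 1.56, 0.890 and 1.14 CPM in βIgf1r mice M148, M151, M152 and M153. In βIgf1rKD mice M145, M146, M149 and M150 it was at 0.749, 0.4999, 0.696 and 0.814 CPM. The highest Bach2 level belonged to M151, the mouse with the most B cell RNA, and 3 of the 4 βIgf1rKD mice lay below every control. The mean went from 1.10 ± 0.342 CPM to 0.690 ± 0.135 CPM (SD, n = 4 each), a log2 fold change of -0.66 (standard error 0.30, 95% interval -1.32 to 0.01; edgeR unadjusted p = 0.0518, adjusted p = 0.987; exact permutation p = 0.0571). Without M151 the log2 fold change was -0.43 (edgeR unadjusted p = 0.168), whereas with the B cell marker score as covariate it stayed at -0.66 (edgeR unadjusted p = 0.0434). Other settings put it on either side of the threshold. It was at -0.79 without M148 (edgeR unadjusted p = 0.0363), at -0.53 without M146 (edgeR unadjusted p = 0.128), at -0.59 by limma-voom (unadjusted p = 0.07496) and at -1.24 with the endothelial score (standard error 0.61, edgeR unadjusted p = 0.0733). Bach2 had only 14 to 43 counts per mouse, and its counting error of 18.1% to 22.5% stood beside a coefficient of variation of 31.2% in βIgf1r mice (counting error 18.1%) and 19.6% in βIgf1rKD mice (22.5%).

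The factors that share binding sites or partners with BACH2 were centred near 0. Of 10 CNC and small Maf genes 9 were tested, 6 with a higher and 3 with a lower mean, a median log2 fold change of 0.04 and none at an unadjusted p under 0.05. Bach1, its closest relative, was at -0.06 (standard error 0.09), and Mafg and Mafk, small Maf partners, at 0.04 (standard error 0.12) and 0.10 (standard error 0.10). Hmox1, a target repressed by BACH factors, was at 0.20 (standard error 0.19), and Prdm1, which BACH2 represses in B cells, at -0.22 (standard error 0.15). Nfe2l2 had the smallest p of the list (0.26, standard error 0.12, edgeR unadjusted p = 0.0596). Nfe2l3 followed at 1.38 (standard error 0.69, edgeR unadjusted p = 0.0766), from 3 to 42 counts. The genes most like Bach2 over the 8 mice were Rfx3 (r = 0.961, rho = 0.952), a ciliary and islet transcription factor, and Plscr1 (r = 0.947, rho = 0.905). Bach2 and Neurog3 themselves correlated at r = 0.850 over the 8 mice, a value that includes the group difference, and at 0.684 after group means were removed, with library and mouse shared by both values. After that removal other pairs were higher, Neurog3 and Cd81 at 0.916, Bach2 and Cd9 at 0.803 and Neurog3 and Cd9 at 0.778.

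Cd81 (ENSMUSG00000037706), on chromosome 7 from 143052739 to 143067934, was the most abundant of the 8 genes. It was at 59.9, 65.9, 51.4 and 58.2 CPM in βIgf1r mice M148, M151, M152 and M153 and at 59.4, 47.5, 78.4 and 69.1 CPM in βIgf1rKD mice M145, M146, M149 and M150. The βIgf1rKD mice lay on both sides of the controls, 2 above all of them and 1 below all of them. The log2 fold change was 0.11 (standard error 0.15, 95% interval -0.22 to 0.44; edgeR unadjusted p = 0.463; exact permutation p = 0.657), and it was -0.00394 without M149. Counting error was 2.36% to 2.44%, far below the coefficient of variation of 10.1% in βIgf1r and 20.8% in βIgf1rKD mice.

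Cd9 (ENSMUSG00000030342), the other tetraspanin, lies on the minus strand of chromosome 6 from 125460266 to 125494791. Its values were 14.5, 20.9, 14.8 and 14.9 CPM in βIgf1r mice M148, M151, M152 and M153 and 15.02, 9.71, 18.6 and 21.0 CPM in βIgf1rKD mice M145, M146, M149 and M150. Apart from M151 the controls were within a narrow band, while the βIgf1rKD mice held both the lowest and the highest value. For Cd9 the log2 fold change was -0.01 (standard error 0.23, 95% interval -0.52 to 0.49; edgeR unadjusted p = 0.955), 0.13 without M151 and 0.17 without M146. Cd9 and Cd81 correlated at r = 0.844 over the 8 mice and at 0.885 within groups. The genes most like them were Slfn5 (r = 0.965) and the complement gene C3 (r = 0.957) for Cd9, and the scavenger receptor Colec12 (r = 0.990) and Rpl27 (r = 0.959) for Cd81.

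Among 28 tetraspanins and their partners 27 were tested, 10 with a higher and 17 with a lower mean, and the median log2 fold change was -0.08. At an unadjusted p under 0.05 there were 3. Itga6, an integrin that binds tetraspanins, had the higher mean (0.31, standard error 0.11, edgeR unadjusted p = 0.0232), and with the acinar score as covariate it was at 0.16 (edgeR unadjusted p = 0.143). Tspan18 was at -0.38 (standard error 0.16, edgeR unadjusted p = 0.0373) and Tspan3 at -0.21 (standard error 0.09, edgeR unadjusted p = 0.0469). Neither kept such a p with the acinar score (-0.32 and -0.14, edgeR unadjusted p 0.124 and 0.184) or with the endothelial score (-0.37 and -0.10, edgeR unadjusted p 0.336 and 0.640). Cd63 and Tspan13, the most abundant per length, were at 0.06 and -0.22. Cd37 and Cd53, tetraspanins of leukocytes, had standard errors of 0.89 and 0.64, with up to 158 and 239 counts in a mouse.

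**Figure D2:**
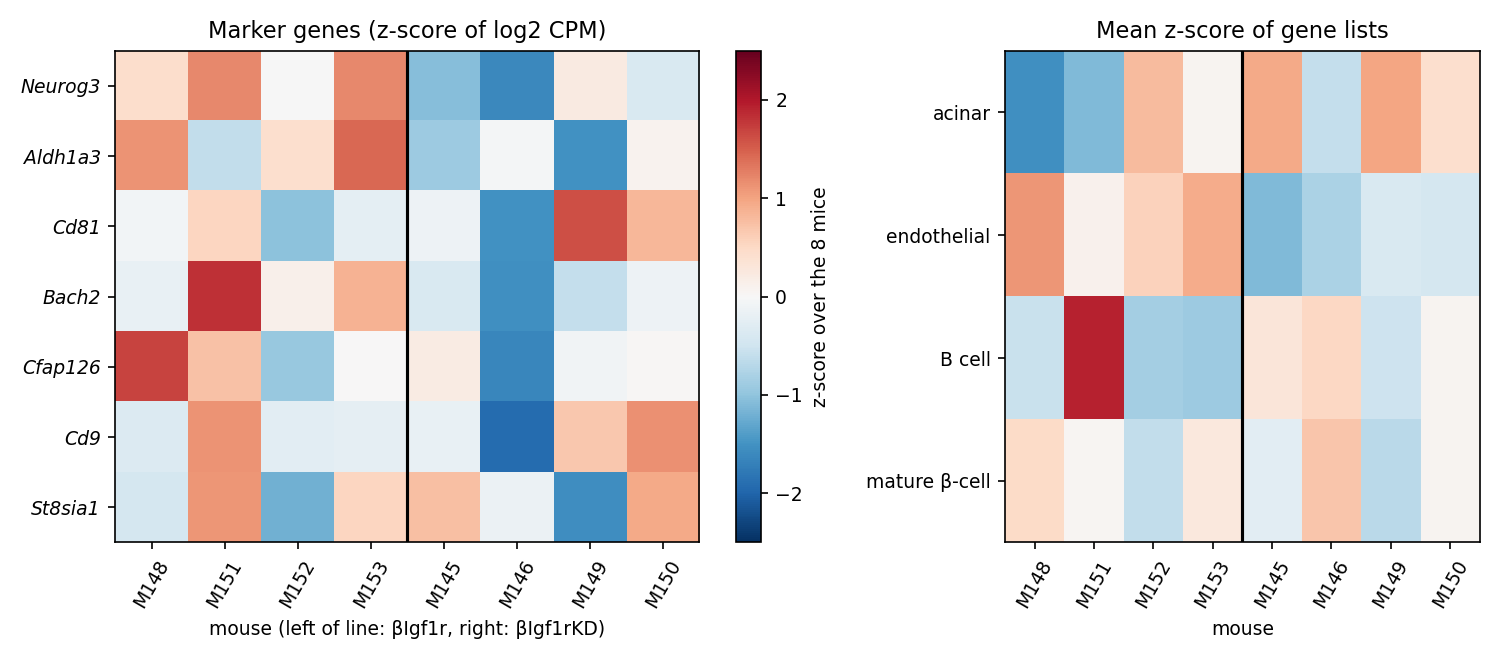
Left, z-scores over the 8 mice of log2 CPM of the 7 tested marker genes (rows) in each mouse (columns, βIgf1r left of the line and βIgf1rKD right of it), red for high and blue for low. Right, the mean z-score of acinar, endothelial, B cell and mature β-cell genes in the same mice on the same colour scale. M146 is the lowest mouse in 5 of the 7 rows, and M151 has a B cell score of 1.91.

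Cfap126 (ENSMUSG00000026649), on chromosome 1 from 171113918 to 171126967, was at 11.3, 10.1, 8.40 and 9.34 CPM in βIgf1r mice M148, M151, M152 and M153. It was at 9.54, 7.78, 9.23 and 9.35 CPM in βIgf1rKD mice M145, M146, M149 and M150. The groups overlapped, and 1 βIgf1rKD mouse, M146, lay below every control. Its log2 fold change was -0.13 (standard error 0.12, 95% interval -0.40 to 0.15; edgeR unadjusted p = 0.326; exact permutation p = 0.371). Of 23 planar cell polarity and cilium genes all were tested, 11 with a higher and 12 with a lower mean and a median of -0.03. Fzd6 and Dvl3 were the 2 at an unadjusted p under 0.05, and they pointed in opposite directions.

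Fzd6, a frizzled receptor of planar cell polarity, was at 6.07, 6.55, 6.41 and 6.45 CPM in βIgf1r mice M148, M151, M152 and M153 and at 4.02, 4.57, 5.66 and 5.11 CPM in βIgf1rKD mice M145, M146, M149 and M150. The groups did not overlap for Fzd6 (log2 fold change -0.39, standard error 0.13, edgeR unadjusted p = 0.0148, adjusted p = 0.987), nor with the opposite sign did those of Dvl3, a dishevelled adaptor that acts below frizzled (0.21, standard error 0.07, unadjusted p = 0.0207). With the endothelial score as covariate Fzd6 was at -0.19 (standard error 0.30, edgeR unadjusted p = 0.547). With the acinar score it kept such a p, at -0.42 (standard error 0.16, edgeR unadjusted p = 0.0277). For Dvl3 the acinar score gave 0.19 (standard error 0.09, edgeR unadjusted p = 0.0748). The endothelial score gave 0.45 for Dvl3 (standard error 0.16, edgeR unadjusted p = 0.0210). Dvl3 was at 33.9 to 40.8 CPM in βIgf1r and 41.9 to 44.8 CPM in βIgf1rKD mice. Wnt4 and Dvl1, the most abundant genes of the list per length, were at 0.13 (standard error 0.12) and 0.10 (standard error 0.07). Foxj1, the master factor of motile cilia, was at -0.55 (standard error 0.53), from 8 to 59 counts. Nearest to Cfap126 across the mice were Adgrf5 (r = 0.961, rho = 1), a receptor of endothelial cells, and Mmd (r = 0.944).

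St8sia1 (ENSMUSG00000030283), the sialyltransferase that makes ganglioside GD3, lies on the minus strand of chromosome 6 from 142821545 to 142964452. It was at 16.3, 21.2, 14.3 and 19.3 CPM in βIgf1r mice M148, M151, M152 and M153 and at 20.0, 17.1, 13.5 and 20.6 CPM in βIgf1rKD mice M145, M146, M149 and M150. The means of 17.8 ± 3.07 CPM and 17.8 ± 3.28 CPM (SD, n = 4 each) were the closest of the 8 pairs. The log2 fold change was 0.01 (standard error 0.16, edgeR unadjusted p = 0.975), and its 95% interval of -0.36 to 0.37 bounds the size of a difference these mice could hide. All 18 ganglioside genes were tested, 8 with a higher and 10 with a lower mean and a median of -0.02. The 1 at an unadjusted p under 0.05 was St8sia4, which builds polysialic acid chains and not gangliosides (-0.67, standard error 0.28, edgeR unadjusted p = 0.0371). It was at 2.35 to 6.002 CPM in βIgf1r mice, with M151 highest, and 2.32 to 2.61 CPM in βIgf1rKD mice. With the acinar score as covariate it was at -0.49 (edgeR unadjusted p = 0.168), and with the endothelial score at -1.26 (edgeR unadjusted p = 0.0481). B4galnt1, which turns GD3 and its relatives into larger gangliosides, was at 1.11 (standard error 0.52, edgeR unadjusted p = 0.0602), and St3gal5, which makes the precursor GM3, at 0.30 (standard error 0.18). The genes most like St8sia1 were Appbp2 (r = 0.966) and Shisal2b (r = 0.964).

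**Figure D3:**
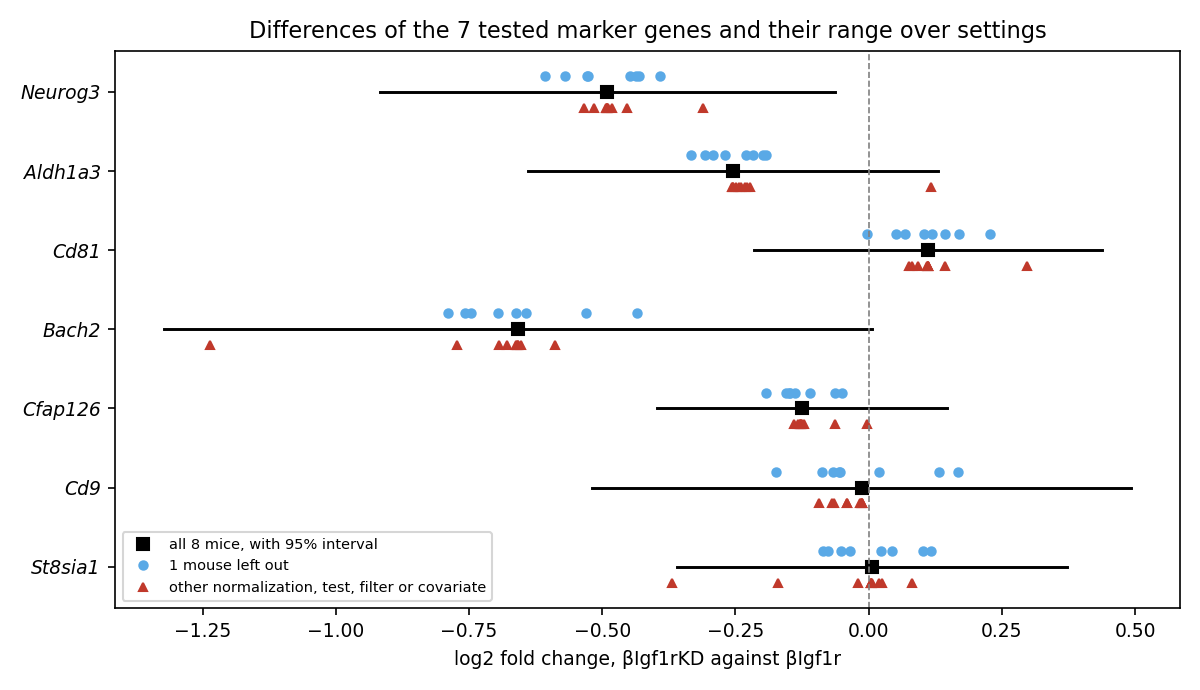
Log2 fold changes of the 7 tested marker genes (squares, x axis) with their 95% intervals (lines), with each mouse left out in turn (circles) and under another normalization, test, filter or covariate (triangles). The interval of Neurog3, from -0.92 to -0.06, is the only one of the 7 that excludes 0, and Bach2 stays negative in every setting drawn.

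Per kilobase of exon the levels differed widely, with a median over the 8 mice of 20.7 CPM per kilobase for Cd81, 7.33 for Cd9, 5.27 for Cfap126, 2.12 for Neurog3, 1.95 for St8sia1, 0.640 for Aldh1a3, 0.308 for Gast and 0.0811 for Bach2. In this order the ranges of neighbours were separate except for Cd9 and Cfap126, for Neurog3 and St8sia1, and for Gast and Bach2. Neurog3 was above St8sia1 in 5 of the 8 mice only, whereas Cd9 was above Cfap126 in all 8. Cd81 stood above 91.1% of the tested genes per length, Neurog3 above 41.6%, Aldh1a3 above 20.0% and Bach2 above 1.65%. Aged islets of both groups thus held RNA of Neurog3 and Aldh1a3 in every mouse, at least 57 and 54 counts per library. Antisense transcripts that overlap 4 other markers were low, with 0 to 3 counts for Bach2os at Bach2, 0 to 2 for Gm26728 at Cd9 and for Gm7457 at St8sia1, and 27 to 76 for R74862 at Cd81.

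Mouse to mouse, M146 of the βIgf1rKD group was the lowest in 5 of the 7 tested genes (Neurog3, Bach2, Cd81, Cfap126 and Cd9) and in the lower 4 for all 7. M151 of the βIgf1r group was the highest in 3, Neurog3, Bach2 and St8sia1. M149 was the lowest in Aldh1a3 and St8sia1 and the highest in Cd81. M146 also had the highest mature β-cell score, 0.69 against -0.66 to 0.48 in the other mice.

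Other genes used to follow dedifferentiation and immaturity lay on both sides of 0, more of them above it. Of 16 genes in this list 14 were tested, 9 with a higher and 5 with a lower mean in βIgf1rKD islets, with a median log2 fold change of 0.19 and 3 at an unadjusted p under 0.05, all higher, as were 2.23% of all genes tested. Myc, which drives growth and loosens β-cell identity, was at 3.14, 3.78, 3.60 and 3.98 CPM in βIgf1r mice M148, M151, M152 and M153 and at 11.1, 2.93, 10.8 and 4.39 CPM in βIgf1rKD mice M145, M146, M149 and M150, and M145 and M149 stood above the other 6 mice. For Myc the log2 fold change was 1.003 (standard error 0.39, edgeR unadjusted p = 0.0294, adjusted p = 0.987). Hk2, a high-affinity hexokinase, was at 0.69 (standard error 0.28, edgeR unadjusted p = 0.0356). With the acinar score as covariate the values were 0.47 for Myc and 0.41 for Hk2 (edgeR unadjusted p 0.315 and 0.187). M145 and M149 had the highest acinar scores, 0.939 and 0.990, while the control M152 followed at 0.795 with Myc at 3.60 CPM. The cause of the Myc and Hk2 differences was not tested. Gc, the most abundant of the list per length, was at -0.22 (standard error 0.22).

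**Figure D4:**
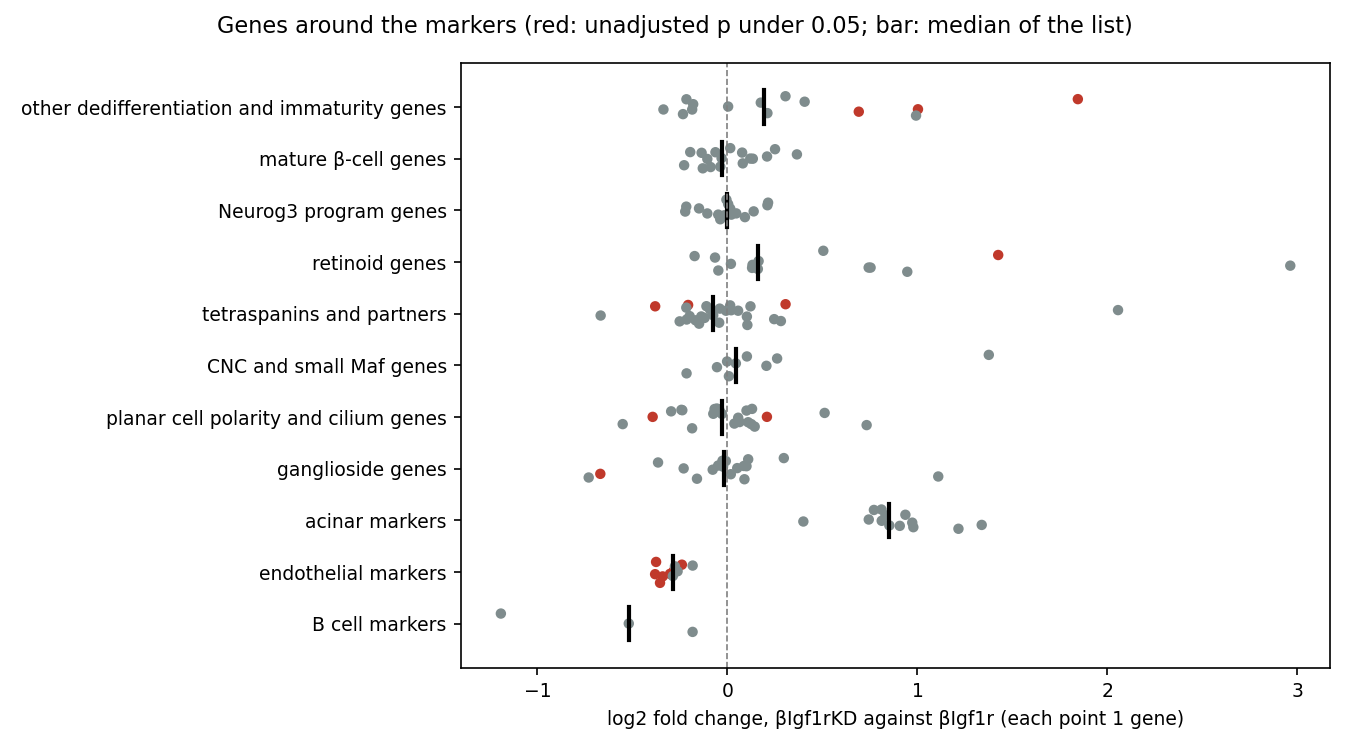
Log2 fold change (x axis) of the tested genes of 8 lists around the markers and of 3 cell type lists, 1 point per gene, red for an unadjusted p under 0.05 and grey otherwise, with the median of each list as a bar. Acinar markers lie around a median of 0.85 and endothelial markers around -0.29, while the lists of β-cell genes are centred near 0.

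Genes of the mature β-cell list, of which Neurod1, Rfx6 and Nkx2-2 also belong to the Neurog3 program list, were spread evenly around 0. All 17 were tested, with 8 higher and 9 lower in βIgf1rKD islets, a median log2 fold change of -0.03 and none at an unadjusted p under 0.05. Mafa, the factor of mature insulin transcription, was at 0.37 (standard error 0.30), Ucn3, a hormone gene of mature β-cells, at -0.06 (standard error 0.13), and Slc2a2, the glucose transporter GLUT2, at -0.13 (standard error 0.15). Iapp and G6pc2, the most abundant per length, were at -0.23 (standard error 0.28) and 0.12 (standard error 0.21). The mean log2 CPM of the 17 genes differed by 0.01 between the groups (exact permutation p = 0.914). Relative to that mean in each mouse, a scale added after the data were examined, Aldh1a3 differed by -0.26 (exact permutation p = 0.0571), Neurog3 by -0.50 (p = 0.0857) and Bach2 by -0.60 (p = 0.114), on the log2 scale.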

How the data were processed

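Islet RNA was sequenced from stranded mRNA libraries. For every gene and mouse the authors deposited an estimated count, not scaled between mice, and the submitters' processing notes name fastp, kallisto and GRCm38. Estimated counts were rounded to whole numbers. Of 53012 identifiers 51906 were matched to GENCODE M21 on GRCm38. The filter of edgeR 4.0.16 (minimum count 10 scaled to library size, in at least 4 mice, minimum total 15) kept 15474 genes, which were scaled by TMM and compared in R 4.3.3 by the quasi-likelihood test, with p-values adjusted after Benjamini and Hochberg. A standard error is the log2 fold change over the root of F. Log2 CPM used a prior count of 2, and exact permutation tests ran over 70 assignments of mice. No source says that the mice were independent litters, so p-values measure the spread between these mice.

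The members and gene lists were chosen with earlier results of these data known. Named from each list were up to 4 genes at an unadjusted p under 0.05 and the 2 most abundant per length, and for each member the 2 genes with the highest Pearson r. Genes named beyond that rule were chosen for their role after values were seen. Alternatives were RLE factors, DESeq2 1.42.0, limma-voom (limma 3.58.1), other filters, a prior count of 0.5, marker scores or Xist as covariate, and each mouse left out with filter and scaling repeated. On simulated counts with 195 genes changed by a fold of 2 among 15269, edgeR called 64.6%, with 9 false calls. The changed genes were drawn at random over all levels, so that this share is not the power for the markers. Plots used matplotlib 3.10.9 in Python 3.11.15. Mice were assigned no sex. Some genes that the naming rule selects are not reported here on their own, though list counts include them.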

Additional observations from a re-analysis of the deposited data

Results flagged for a closer look

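In 18 groups of 4 mice, both groups for each of 9 genes (the 8 markers and Igf1r), the distance of the highest or lowest mouse from its nearest neighbour was compared with the range of the group, which by chance exceeds its limit in about 1 of 20 groups. Cfap126 in βIgf1rKD mice exceeded it through M146, at 2.97 log2 CPM against 3.22 to 3.27 in the other 3 (gap over range 0.835). Cd9 in βIgf1r mice exceeded it through M151, at 4.39 log2 CPM against 3.86 to 3.91 in the other 3 (0.912).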

How the results depend on the processing

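Over all genes, the number at an adjusted p under 0.05 was 8 by DESeq2 and 1 by limma-voom in place of 0, and 0 under the other settings. The number at an unadjusted p under 0.05, 637 of 15474, was 1098 of 27738 without a filter on low counts. Of the same 15474 genes it was 358 with the acinar score, 318 with the endothelial score and 1143 with Xist as covariate. With a mouse left out it lay between 383 of 15630 (without M148) and 1114 of 15714 (without M152). That number was 557 of 14091 genes when at least 10 counts were asked of every mouse. With the B cell score, a covariate added after the data were examined, it was 710 of 15474. Of the marker genes, 2 had an unadjusted p under 0.05 with at least 10 counts in every mouse, and 2 with the B cell score. The number was 0 with the acinar or the endothelial score. It was 1 without a filter on low counts (Neurog3, edgeR unadjusted p = 0.0304) and 1 with Xist as covariate (Bach2, edgeR unadjusted p = 0.0350). With a mouse left out the number lay between 0 and 2, and 0 marker genes passed at an adjusted p in any setting. Directions turned for Aldh1a3 with the endothelial score (0.12), and for St8sia1 with the endothelial score (-0.37), Xist (-0.17) and the B cell score (-0.0198). With a mouse left out, St8sia1 ranged from -0.0853 to 0.12, Cd9 from -0.17 to 0.17 and Cd81 from -0.00394 to 0.23. Neurog3, Bach2 and Cfap126 were negative in every alternative fitted. The cause of these shifts was not tested. No paired analysis was possible because the groups share no mouse numbers. Depth limits Gast, with 1 to 6 counts, and Bach2.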
